A study of Mus musculus with 22 samples.

Results

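The interferon response genes are the messenger RNAs that cells make after interferon has bound its receptor. A fixed list of 46 such genes was read in the intestine of SIRT1 mutant and control mice. A gene entered where the gene name in the array files equalled a listed name, and it was read from the brightest of its probes. In this way 41 of the 46 genes were matched among 27962 gene names on the array. Of the other 5, Dhx58, Irf9, Gbp3 and Irgm1 sat on the array under older names, found through their accessions and reported separately, and Xaf1 was not matched.

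The material was total RNA from the ileum and colon of male C57BL/6 mice on a chow diet, hybridised to 22 one-colour arrays. All groups shared strain, sex and diet. The mice called flox were the controls and the mice called iKO the SIRT1 mutants. SIRT1 is a deacetylase that uses NAD+ and acts on histones and transcription factors. The labels do not spell out iKO, and they name neither the deleted part of Sirt1 nor the promoter behind the deletion. Young mice were 6 to 8 weeks old and aged mice 24 months old. The groups were young ileum flox (n = 4), young ileum iKO (n = 4), aged ileum flox (n = 3, replicates 1, 3 and 4), aged ileum iKO (n = 4), aged colon flox (n = 3, replicates 1, 3 and 4) and aged colon iKO (n = 4). The labels leave unsaid whether any mouse gave both tissues and whether the replicates are separate animals, so each p-value measures the spread between these arrays only.

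Interferons come in families that use different receptors. Type I and type III interferons signal through a complex that holds STAT2 and IRF9 and binds the interferon-stimulated response element of antiviral genes. Interferon gamma, made mainly by T cells and natural killer cells, acts at gamma-activated sites and drives the immunoproteasome, peptide transporters, GTPases and T cell attracting chemokines. The gut lining keeps a standing level of many of these genes, and its intraepithelial lymphocytes are rich in cytotoxic cells.

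The letters of these elements were looked for in the 250 bases before the start of each member, in RefSeq promoters of build GRCm38.p6. The table held 34 of the 46 members, with 41 start sites. The core of the response element, GAAA and a further GAAA with any 2 bases between them, lay on either strand in the window of 14 of the 34 genes and in 34.1% of the member windows, against 2.98% of all 32851 promoter windows. TTCNNNGAA, the palindrome of the gamma-activated site, lay in 8 genes and 19.5% of member windows, against 7.02% of all. The 2 patterns overlapped in 1 member window. Among antiviral effectors 8 of 13 genes held the response element core, among the GTPases 4 of 5, and among the antigen processing genes 0 of 4. A match is a string of letters and not a proven site, and no match speaks only of these bases.

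The following stretches show the pattern in members of different roles. Capitals mark the matched bases, each stretch runs 5′ to 3′ along the strand of its gene, and the 60 bases lie at chr4:156200862-156200921 (Isg15, minus strand), chr19:34640760-34640819 (Ifit1, plus), chr5:120907526-120907585 (Oas1a, minus), chr3:142620579-142620638 (Gbp2, plus), chr11:58199496-58199555 (Igtp, plus), chr11:53769898-53769957 (Irf1, plus) and chr8:120736161-120736220 (Irf8, plus). In the first 5 the capitals mark the response element core or its reverse complement, and in Irf1 and Irf8 they mark TTCNNNGAA. The Igtp stretch also holds TTCNNNGAA, left there in small letters.
Isg15: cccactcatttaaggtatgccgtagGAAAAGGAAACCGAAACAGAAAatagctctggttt
Ifit1: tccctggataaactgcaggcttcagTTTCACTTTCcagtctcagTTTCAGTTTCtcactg
Oas1a: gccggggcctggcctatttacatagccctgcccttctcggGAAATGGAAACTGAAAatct
Gbp2: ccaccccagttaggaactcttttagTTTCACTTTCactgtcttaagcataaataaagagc
Igtp: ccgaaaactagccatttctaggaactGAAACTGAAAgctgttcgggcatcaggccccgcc
Irf1: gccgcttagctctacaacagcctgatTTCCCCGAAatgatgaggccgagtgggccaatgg
Irf8: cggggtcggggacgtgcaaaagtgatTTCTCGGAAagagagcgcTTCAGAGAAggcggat
Isg15 held 3 matches in its window, the first of which ended 68 bases before the start, and Ifit1 held 2. Irf8 held 2 matches to the gamma-activated pattern.

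The whole 250-base windows are printed for members with the smallest p-values between colon and ileum, the comparison with most calls. They lie at chr17:34187306-34187555 (Tap1, plus strand), chr17:34197945-34198194 (Psmb8, plus), chr5:92328080-92328329 (Cxcl9, minus) and chr5:92348890-92349139 (Cxcl10, minus). The window of Psmb9, chr17:34187331-34187580 on the minus strand, is nearly the same stretch as that of Tap1 read from the other strand, since these neighbours start back to back.
Tap1: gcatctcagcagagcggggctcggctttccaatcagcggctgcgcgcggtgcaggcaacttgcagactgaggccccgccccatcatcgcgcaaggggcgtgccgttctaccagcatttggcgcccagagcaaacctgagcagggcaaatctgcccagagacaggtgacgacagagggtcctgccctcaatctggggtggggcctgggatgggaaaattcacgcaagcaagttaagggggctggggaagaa
Psmb8: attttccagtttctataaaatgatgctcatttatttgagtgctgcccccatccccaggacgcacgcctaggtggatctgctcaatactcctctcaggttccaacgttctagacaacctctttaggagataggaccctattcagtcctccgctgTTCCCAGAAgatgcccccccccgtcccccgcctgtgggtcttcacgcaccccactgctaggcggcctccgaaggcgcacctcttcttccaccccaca
Cxcl9: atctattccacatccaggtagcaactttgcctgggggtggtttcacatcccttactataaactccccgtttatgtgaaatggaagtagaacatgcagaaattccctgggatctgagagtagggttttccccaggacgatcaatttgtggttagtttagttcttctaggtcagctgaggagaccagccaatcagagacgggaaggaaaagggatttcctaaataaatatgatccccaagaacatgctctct
Cxcl10: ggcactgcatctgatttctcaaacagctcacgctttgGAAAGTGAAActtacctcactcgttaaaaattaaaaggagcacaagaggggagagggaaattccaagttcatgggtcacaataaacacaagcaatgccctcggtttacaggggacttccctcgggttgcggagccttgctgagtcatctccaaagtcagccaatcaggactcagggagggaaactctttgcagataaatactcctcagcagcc
Neither pattern lay in the windows of Tap1, Psmb9 or Cxcl9. Psmb8 held TTCNNNGAA 88 bases before the start and Cxcl10 held the response element core 203 bases before it.

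Levels are log2 signals from which the array's own 75th percentile was subtracted, so 0 is the level of that percentile and 1 unit is a doubling. Between 49.78% and 61.53% of spots were well above background on the ileum arrays and 70.45% to 79.66% on the colon arrays. Ileum and colon lay on different slides scanned on different days, 4 slides each, so tissue and array run cannot be told apart. Young flox arrays sat at position 1 of their slides and young iKO arrays at position 2, and colon flox and iKO arrays at positions 3 and 4, so genotype and position coincide in the young ileum and the colon. Age and position coincide in the ileum in the same way, with aged arrays at positions 3 and 4.

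Sirt1, the targeted gene, read 1.03, 0.67, 1.25 and 1.00 on the young flox arrays and 0.72, 0.79, 0.78 and 0.83 on the young iKO arrays. In the aged ileum it read 0.67, 1.16 and 0.85 in flox and 0.35, 0.39, 0.38 and 0.45 in iKO, and in the colon 0.85, 0.86 and 0.83 in flox and 0.47, 0.67, 0.71 and 0.41 in iKO. The aged groups did not overlap in either tissue, and the young groups did. The differences, iKO minus flox, were -0.21 ± 0.12 (SE, limma adjusted p = 1), -0.50 ± 0.13 (adjusted p = 0.175) and -0.28 ± 0.11 (adjusted p = 0.642), so none passed. The labels do not say whether the probe lies in the deleted part.

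Of the 41 matched members, 38 were well above background on all 22 arrays. The exceptions were Oas1g, a 2′-5′ oligoadenylate synthetase gene, Mx1, a GTPase that blocks influenza virus but is defective in C57BL/6 mice, and Cxcl11, a ligand of the receptor CXCR3 whose coding frame is disrupted in this strain. Oas1g was well above background on 5 colon arrays, read -6.94 to -4.90 and was not tested. Mx1 was above on 17 arrays and Cxcl11 on 14. A member was tested if no array of some group in the fit had its probe at background, which left 39 in the ileum and 40 in the colon and aged fits.

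The members varied between arrays of 1 group more than most genes did. The median standard deviation within groups was 0.51 over the 39 tested members against 0.20 over 15588 genes in the ileum, and 0.39 over 40 members against 0.22 over 19753 genes in the colon. Zbp1, a sensor of Z-form nucleic acid, had a standard deviation of 1.02 in the ileum and 0.63 in the colon. These differences between replicates set the error of every comparison that follows.

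An interferon score summarises each array. It is the median, over the 38 members well above background everywhere, of the level minus the mean of its tissue. In the young ileum it was 0.53, 0.05, -0.76 and -0.36 on flox arrays 1 to 4 and 0.63, 0.07, 0.13 and -0.28 on iKO arrays 1 to 4. Young flox array 3 stood lowest, with 2 of 38 members above the tissue mean and the lowest level of the 15 ileum arrays in 21 members. Young iKO array 1 stood highest, with 35 of 38 members above the mean and the highest level in 15, and young flox array 1 had 36 members above it. The 2 genotypes overlapped over most of their range, at -0.14 ± 0.55 (SD, n = 4) and 0.14 ± 0.38 (SD, n = 4).

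In the aged ileum the score was -0.07, -0.33 and -0.12 on flox arrays 1, 3 and 4 and 0.26, -0.13, 0.60 and 0.04 on iKO arrays 1 to 4. Group values were -0.17 ± 0.14 (SD, n = 3) and 0.19 ± 0.31 (SD, n = 4). The groups overlapped through iKO array 2 alone, and iKO array 3 was high, with 36 of 38 members above the mean. In the colon the score was -0.23, 0.05 and 0.00 on flox arrays 1, 3 and 4 and -0.01, 0.52, -0.21 and -0.06 on iKO arrays 1 to 4. Colon iKO array 2 stood apart, with the highest level of the 7 colon arrays in 26 of 38 members, and the other 3 iKO arrays lay within the flox range.

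**Figure D1:**
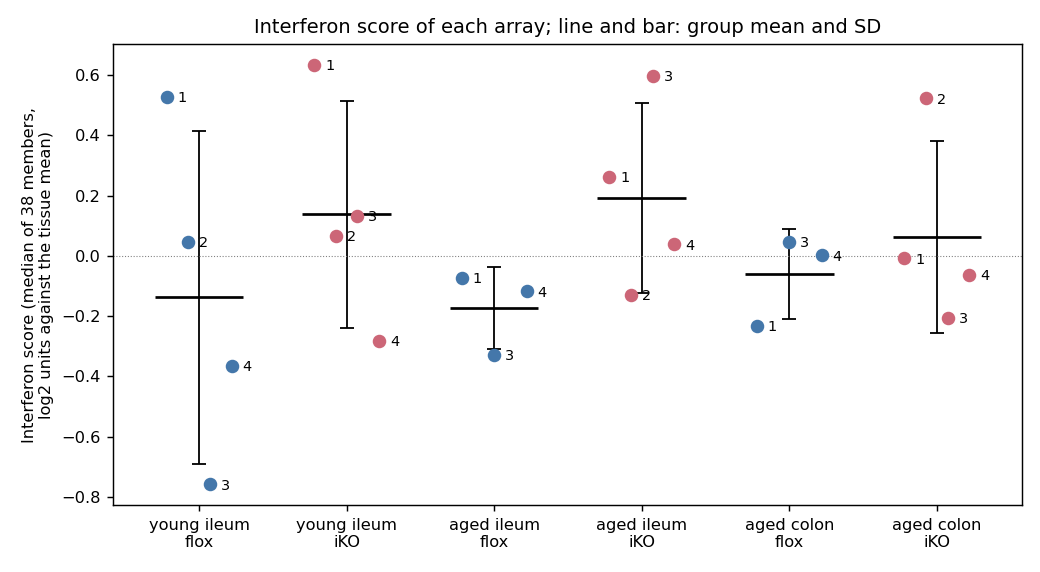
Interferon score of each of the 22 arrays by group, as the median over 38 members of the log2 level minus the tissue mean, with the group mean and standard deviation. Young flox array 3 lies at -0.76 and colon iKO array 2 at 0.52, each away from the rest of its group.

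The members differed in how far they moved, and some moved the other way. On young flox array 3 the score of the GTPases was -1.45 and that of antigen processing -1.22, against -0.71 for the antiviral effectors. The chemokine score, made of Cxcl9 and Cxcl10, was -1.74. Cxcl11, outside the score, read -2.49 on that array, the highest level among the ileum arrays. On colon iKO array 2 the antiviral effectors read 0.81 while the chemokines read -0.44. The listed markers of natural killer and cytotoxic cells were Ncr1, Klrb1c, Klrd1, Gzma, Gzmb, Prf1 and Nkg7. Their score rests on Klrd1, Gzma, Gzmb and Nkg7, the listed markers well above background on every array. This cytotoxic score was -1.75 on young flox array 3 and 0.98 on young iKO array 1, the lowest and the highest ileum arrays by interferon score. On aged iKO array 3 it was -0.68 while the antiviral effectors read 0.76. Over groups the cytotoxic score ran from -1.75 to 0.79 in young flox, 0.02 to 0.98 in young iKO, -0.97 to 0.10 in aged flox and -0.68 to 0.84 in aged iKO ileum, and from 0.13 to 0.64 in flox and -0.99 to 0.62 in iKO colon. The part of these cells in the interferon scores was not tested. In tissue RNA, fewer cells of a type and less RNA per cell cannot be told apart.

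**Figure D2:**
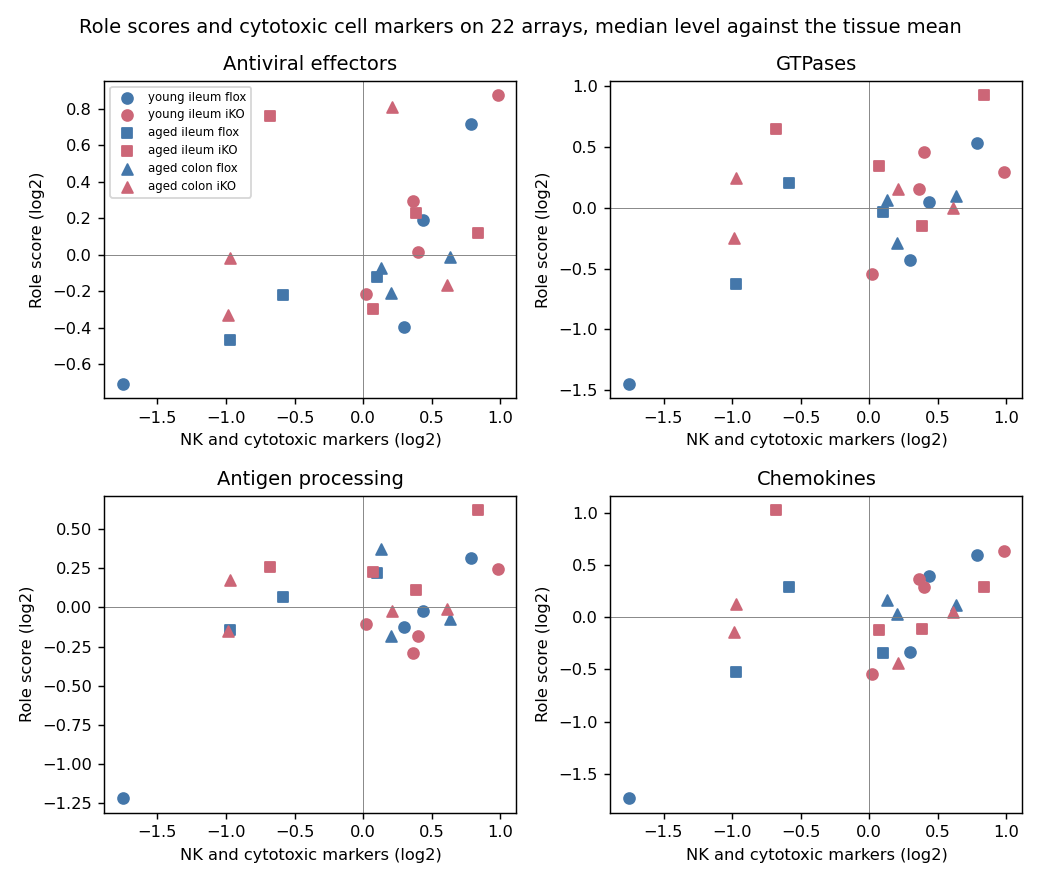
Scores of the antiviral effectors, GTPases, antigen processing genes and chemokines (Cxcl9 and Cxcl10) against the score of cytotoxic marker genes on each array. All are in log2 units relative to the tissue mean. On colon iKO array 2 the antiviral effectors stand at 0.81 and the chemokines at -0.44, and on young flox array 3 the chemokines and the cytotoxic markers are both low, at -1.74 and -1.75.

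Each member was also set against the score of the other members, after subtracting group means. Over the 15 ileum arrays the correlation had a median of 0.825 and was above 0.5 for 35 of 38 members. Usp18, the protease that removes ISG15 and dampens the type I receptor, stood at 0.963, Ifit1, which binds foreign RNA caps, at 0.957 and Mx2 at 0.954. Isg20, an exonuclease, stood at -0.096 and Ddx58, which encodes the RNA sensor RIG-I, at 0.288. Over the 7 colon arrays the median was 0.797, with 28 of 39 members above 0.5, Bst2 (tetherin) at 0.989 and Rsad2 (viperin) at 0.984. In the colon Gbp2 stood at -0.63, Mx1 at -0.557, Cxcl10 at -0.556 and Cxcl9 at -0.3, so these chemokines ran opposite to most antiviral genes there. These are descriptions over arrays that share slides, and colon iKO array 2 weighs heavily in the colon values.

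Genes outside the list that followed the score most closely were named by the same correlation. In the ileum, over 13696 genes, these were Rnf213 (r = 0.975), the unnamed transcript LOC667373 (0.969), Irf9 (0.969), Herc6, listed on the array as Herc5 (0.963), an unnamed Ensembl transcript (0.941), Trafd1 (0.935), Etv3 (0.932) and Casp8 (0.922). Irf9 is the listed member that the array carries under its old name. Without young flox arrays 1 and 3, Rnf213 stood at 0.957 and Irf9 at 0.948. In the colon, over 18720 genes, Mccc2, Slc29a1 and P3h4 each stood at 0.981, Rnf213 at 0.977, Gbp9 at 0.975, Lage3 at 0.972 and Tmem63a at 0.965. An expressed sequence known only by a cluster number stood at 0.974. Without colon iKO arrays 2 and 3, Rnf213 stood at 0.961, Gbp9 at 0.906 and Tmem63a at 0.789.

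**Figure D3:**
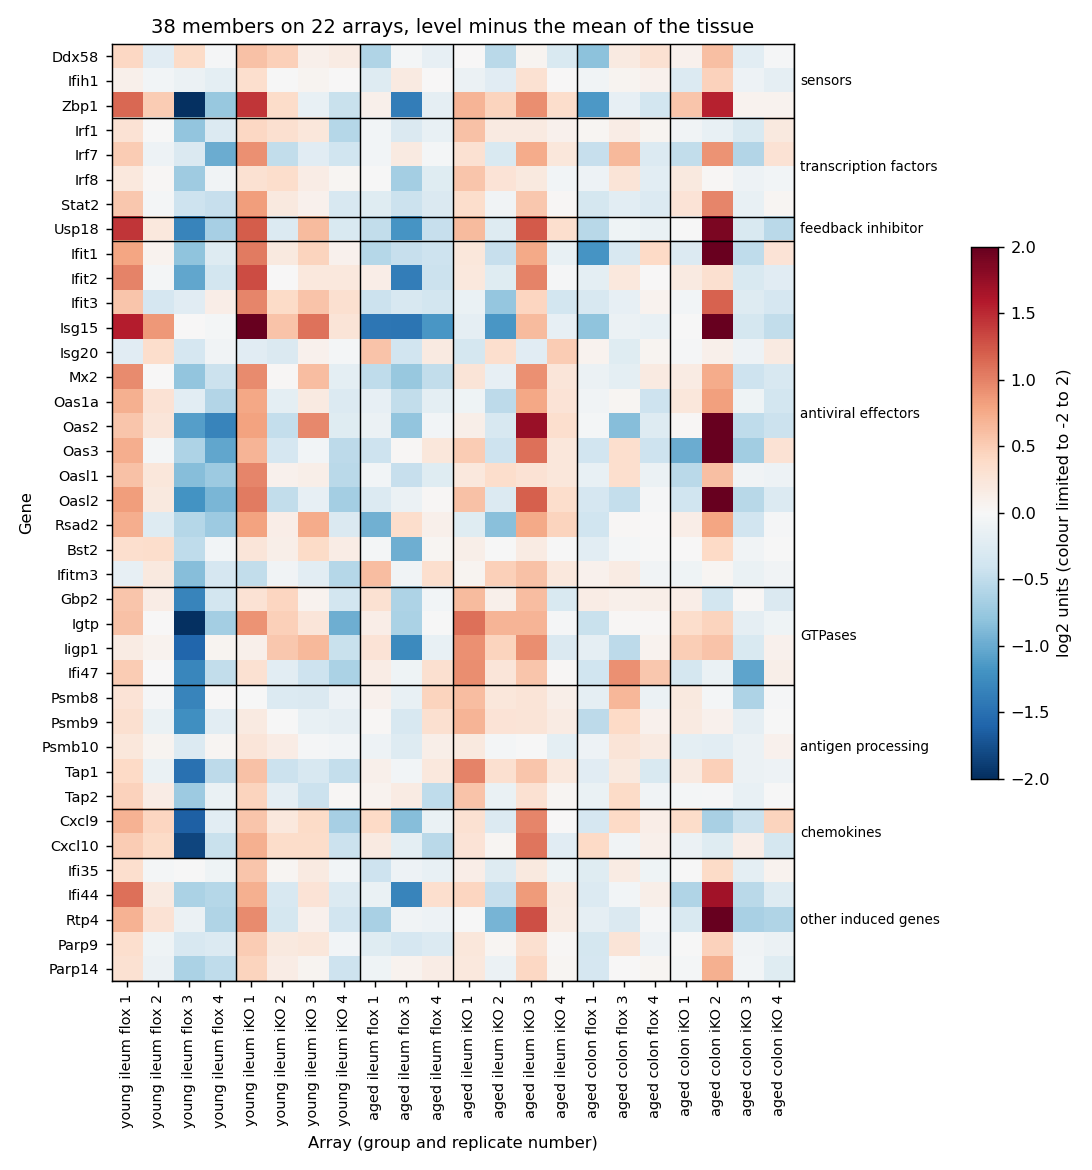
Level of the 38 members well above background on all 22 arrays, in log2 units relative to the mean of the tissue, with members ordered by role. Mx1, Oas1g and Cxcl11 are not shown. The column of young flox array 3 is low across GTPases, antigen processing and the chemokines Cxcl9 and Cxcl10. The column of colon iKO array 2 is high across antiviral effectors.

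Between the tissues of aged mice most members were lower in the colon. In flox mice 23 of 40 tested members were called lower and 1 higher, and in iKO mice 31 lower and 1 higher. Over all 19804 genes tested, 32.7% were called in flox (14% lower, 18.7% higher) and 43.6% in iKO (19.5% lower, 24.1% higher). The median member difference, colon minus ileum, was -1.06 in flox and -1.44 in iKO, against 0.08 and 0.07 over all genes tested. In flox mice 31 members had all colon arrays below all ileum arrays, where 18.6% of all genes did, and in iKO mice 24 members did, where 19.8% of all genes did. The array run coincides with the tissue in every one of these differences.

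The antigen processing members, which cut and carry peptides for MHC class I, were all lower in the colon, 5 of 5 in both genotypes, with a median difference of -2.70 in flox and -2.92 in iKO. Tap1, a subunit of the peptide transporter, read 1.54, 1.38 and 1.65 in the aged flox ileum and -1.29, -0.88 and -1.37 in the flox colon. In iKO it read 2.43, 1.75, 1.99 and 1.64 in the ileum and -0.90, -0.60, -1.19 and -1.17 in the colon. The tissues were far apart with no overlap, 6.52-fold in flox (-2.70 ± 0.22, SE, adjusted p = 6.6e-06) and 7.54-fold in iKO (-2.92 ± 0.19, adjusted p = 5.78e-07).

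Psmb9, an immunoproteasome subunit, read 5.11, 4.76 and 5.42 in the flox ileum and 1.88, 2.80 and 2.50 in the flox colon, and in iKO 5.76, 5.37, 5.35 and 5.25 against 2.59, 2.49, 2.22 and 2.41. Psmb8, its partner subunit, read 5.21, 4.98 and 5.57 against 2.11, 2.95 and 2.17 in flox, and 5.74, 5.35, 5.38 and 5.24 against 2.48, 2.25, 1.68 and 2.27 in iKO. No colon array reached an ileum array for either gene. The differences were -2.71 ± 0.23 (adjusted p = 1.03e-05) and -3.004 ± 0.20 (adjusted p = 7.37e-07) for Psmb9, and -2.85 ± 0.26 (adjusted p = 1.62e-05) and -3.26 ± 0.22 (adjusted p = 9.29e-07) for Psmb8. A further probe of Psmb8 gave -2.76 and -3.21. Psmb10, the remaining immunoproteasome subunit, differed less, by -1.14 ± 0.14 (adjusted p = 0.000133) and -1.43 ± 0.12 (adjusted p = 4.49e-06), and Tap2 by -0.77 (adjusted p = 0.0151) in flox and -1.18 in iKO.

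The chemokines Cxcl9, Cxcl10 and Cxcl11, which draw T cells through the receptor CXCR3, were lower in the colon in 3 of 3 cases in both genotypes. Cxcl9 read 0.96, -0.30 and 0.42 in the flox ileum and -4.39, -3.66 and -3.93 in the flox colon. In iKO it read 0.86, 0.28, 1.53 and 0.56 against -3.68, -4.70, -4.48 and -3.60. The gap was 20.4-fold in flox (-4.35 ± 0.40, adjusted p = 1.97e-05) and 30.3-fold in iKO (-4.92 ± 0.35, adjusted p = 1.18e-06), the widest among the tested members in both genotypes.

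Cxcl10 read -0.54, -0.91 and -1.26 in the flox ileum and -3.05, -3.51 and -3.34 in the flox colon, and in iKO -0.44, -0.68, 0.36 and -0.95 against -3.55, -3.68, -3.31 and -3.80. The tissues did not overlap, with differences of -2.39 ± 0.29 (adjusted p = 0.000123) and -3.16 ± 0.25 (adjusted p = 2.96e-06). Cxcl11 differed by -1.27 ± 0.42 (adjusted p = 0.0354) in flox. In iKO it was not well above background on any colon array and on 1 of 4 aged ileum arrays, so no size is given for its difference (adjusted p = 2.59e-05).

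The interferon-inducible GTPases, which attack vacuoles of intracellular pathogens, were lower in the colon in 4 of 4 cases in both genotypes (medians -2.17 and -2.86). Igtp read 4.27, 3.50 and 4.13 in the flox ileum and 1.41, 1.87 and 1.87 in the flox colon, and in iKO 5.24, 4.82, 4.81 and 4.11 against 2.19, 2.28, 1.66 and 1.76. The tissues did not overlap, and the differences were -2.25 ± 0.29 (adjusted p = 0.000168) and -2.77 ± 0.25 (adjusted p = 6.52e-06). Iigp1 differed by -2.47 ± 0.41 (adjusted p = 0.000897) in flox, Ifi47 by -2.09 ± 0.36 (adjusted p = 0.0011) and Gbp2 by -1.12 ± 0.27 (adjusted p = 0.00795). In iKO these were -2.94, -3.12 and -1.75. Gbp3 and Irgm1, read under their older names, gave -1.29 ± 0.24 (adjusted p = 0.00177) and -0.92 ± 0.25 (adjusted p = 0.0149) in flox, and -1.40 and -1.49 in iKO.

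Among the sensors of foreign nucleic acid, Zbp1 and Ddx58 were lower in the colon in both genotypes and Ifih1 (MDA5) in iKO, 2 and 3 of 3. Zbp1 read 3.32, 1.84 and 3.05 in the flox ileum and -0.14, 0.85 and 0.64 in the flox colon, a difference of -2.29 ± 0.44 (adjusted p = 0.0023), and -2.26 ± 0.38 in iKO. Ddx58 differed by -1.12 in flox and -0.98 in iKO. A further probe of Ifih1 gave 0.05 and -0.25, so the probes of that gene disagree. The RNA sensor Dhx58 differed by 0.20 (adjusted p = 0.733) and -0.09 (adjusted p = 0.856).

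Of 4 transcription factors, Irf1, Irf8 and Stat2 were lower in the colon in both genotypes. Irf1, which drives antigen processing genes, differed by -0.79 ± 0.15 (adjusted p = 0.00189) in flox and -1.37 ± 0.13 (adjusted p = 8.34e-06) in iKO. Irf8, a factor of myeloid and dendritic cells, differed by -1.06 ± 0.19 (adjusted p = 0.00163) and -1.58 ± 0.17 (adjusted p = 2.09e-05), and Stat2 by -0.91 and -0.87. Irf7, the factor that amplifies type I interferon, passed in neither genotype. Irf9 gave -0.57 (adjusted p = 0.199) and -0.50 (adjusted p = 0.165).

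The antiviral effectors had fewer calls, 3 of 15 lower and 1 higher in flox and 8 of 15 lower and 1 higher in iKO (medians -0.85 and -1.06). Ifitm3, a membrane protein that blocks viral entry, differed by -0.90 (adjusted p = 0.00212) in flox, Oasl1 by -0.86 and Mx2 by -0.95, and in iKO by -1.06, -1.43 and -1.77. Ifit2, Oas3, Bst2, Isg15 and Oasl2 passed in iKO and not in flox, and no member passed a test of genotype by tissue. Ifit1, Ifit3, Rsad2, Oas1a, Oas2 and Mx1 passed in neither genotype. The probes of Oas3 disagreed, the brightest at -1.68 in flox and the other at 0.15. The array places its probe for Isg15 on chromosome 17 (mouse build mm7), whereas the gene lies on chromosome 4 in the table of build GRCm38, so the identity of every Isg15 reading is uncertain.

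Isg20 was the member called higher in the colon. It read 0.46, -0.49 and 0.07 in the flox ileum and 1.81, 1.51 and 1.79 in the flox colon, and -0.46, 0.23, -0.33 and 0.40 against 1.71, 1.84, 1.64 and 1.92 in iKO. All colon arrays lay above all ileum arrays, by 1.69 ± 0.25 (adjusted p = 0.000479) and 1.82 ± 0.22 (adjusted p = 5.43e-05). A further probe gave 1.76 and 1.92.

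Other induced members included Parp14 and Parp9, mono-ADP-ribosyltransferases, and Ifi35, and all were lower in the colon in both genotypes. Parp14 differed by -1.75 ± 0.22 (adjusted p = 0.000162) in flox and -1.65 in iKO, Ifi35 by -1.33 ± 0.17 (adjusted p = 0.000163) and -1.43 ± 0.15, and Parp9 by -1.04 ± 0.18 (adjusted p = 0.000978) and -1.35. Ifi44 passed in iKO only, and Rtp4 in neither genotype. The feedback inhibitor Usp18 passed in iKO, at -1.75.

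**Figure D4:**
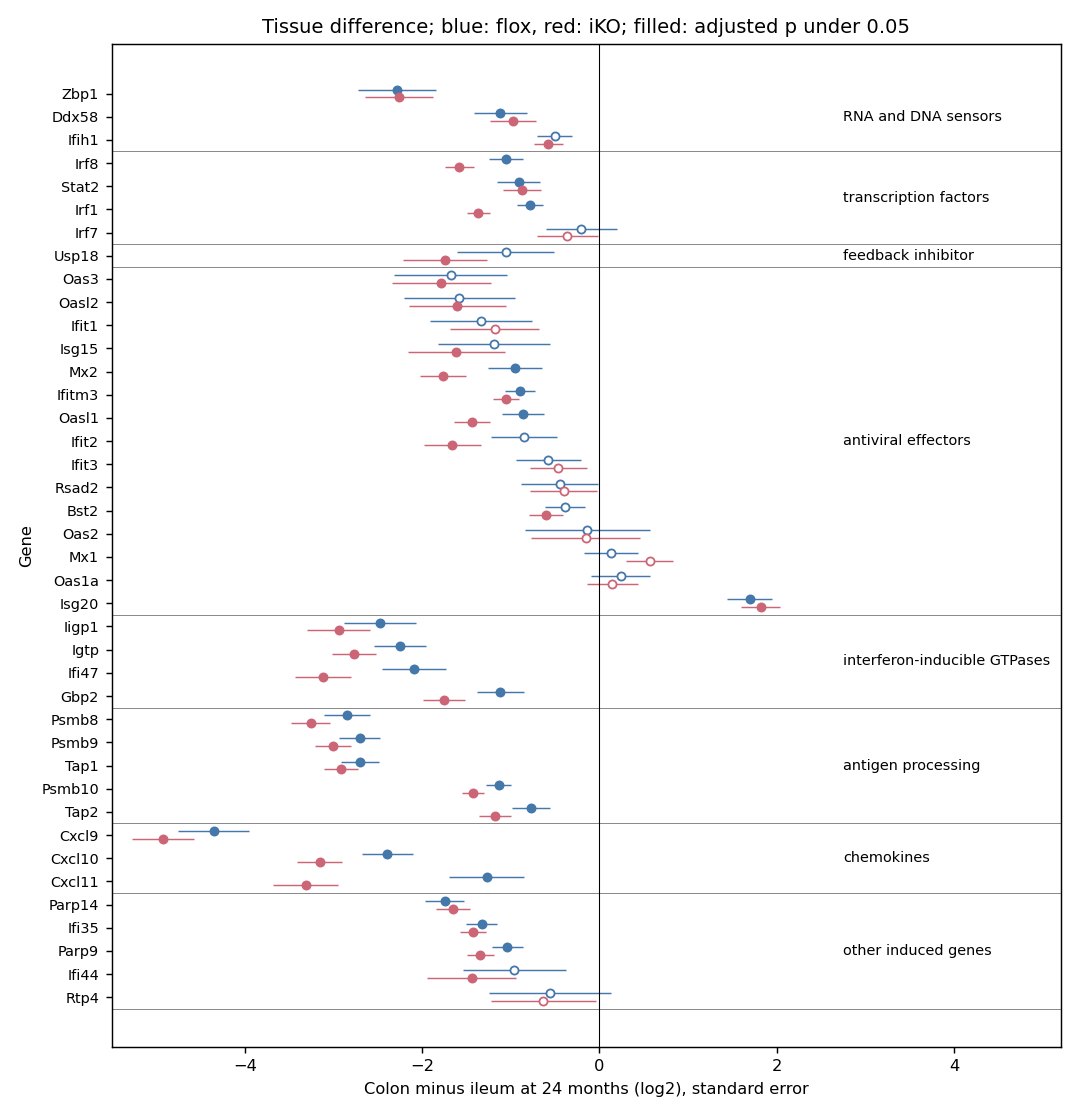
Difference between aged colon and aged ileum for each tested member in flox and iKO mice, with standard errors in log2 units, by role. Cxcl9 lies furthest to the left in both genotypes, at -4.35 and -4.92, and Isg20 lies at 1.69 and 1.82.

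The genes that make and carry the signal were counted from fixed lists. Of 22 interferon genes, 14 were on the array, 1 was well above background on all arrays (Ifnz, of the limitin family) and 5 on none. Interferon gamma (Ifng) read -1.37, -2.67 and -1.29 in the aged flox ileum and -6.58, -5.96 and -6.31 in the flox colon, and -0.66, -1.10, -1.15 and -1.15 against -5.49, -6.54, -5.88 and -4.66 in iKO. It was well above background on all 15 ileum arrays, and on 1 of 3 flox and 3 of 4 iKO colon arrays. The measured differences were -4.51 ± 0.44 (adjusted p = 2.88e-05) and -4.63 ± 0.38 (adjusted p = 3.55e-06), and since part of the colon readings lie at background their size is not exact. Of 8 tested ligands, 1 was called lower and 1 higher in flox, the latter Ifna12, a type I interferon, at 1.31 (adjusted p = 0.0399). Ifna12 entered this test only through the colon groups, where it is above background, so its call leans on that filter. No aged flox ileum array had it well above background. With the ileum side taken as a bound the difference was 1.83-fold, a size that is not exact.

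Of 9 tested receptor and kinase genes of the pathway, 6 were lower in the colon in each genotype and none higher, with medians of -0.39 and -0.38. Il28ra, a chain of the type III receptor, differed by -0.73 ± 0.14 (adjusted p = 0.00256) in flox and -0.77 ± 0.13 (adjusted p = 0.000424) in iKO. Jak2, a kinase of the gamma receptor, differed by -0.57 (adjusted p = 0.0104) and -0.68 (adjusted p = 0.000973), and Ifnar2, a chain of the type I receptor, by -0.53 (adjusted p = 0.0173) and -0.44 (adjusted p = 0.0159). Il10rb and Tyk2 were also lower in both genotypes, Ifngr2 passed in flox and Jak1 in iKO. Ifnar1 gave -0.19 and -0.20 and Ifngr1 0.08 and -0.002, and neither passed. All 6 MHC class I presentation genes were lower, with medians of -0.82 in both genotypes and B2m at -1.998 and -2.322. Of 6 inhibitors, Socs1, Socs3 and Ptpn2 were lower in both genotypes, and of 9 upstream sensing genes 4 and 5 were lower, Tbk1 and Ticam1 among them.

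Markers of several cell types moved with the tissue as well. Natural killer and cytotoxic markers were lower in the colon in 5 of 6 tested genes in each genotype, with medians of -3.19 and -3.77. The granzymes Gzma and Gzmb differed by -5.20 and -4.32 in flox and by -6.53 and -5.54 in iKO, and both were still well above background on all colon arrays, as was Nkg7. Of 8 T cell markers 5 were lower (medians -0.85 and -1.21), and all 8 macrophage markers were lower (medians -1.12 and -1.03). Ileal enterocyte markers were lower in 6 and 5 of 6 genes, and colonic epithelium markers higher in 5 and 7 of 7 under the labels of ileum and colon. Their part in the member differences was not tested.

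Between genotypes in the young ileum no member passed. The limma test called 0 of 39 members at an adjusted p under 0.05, where 0.0449% of 15588 genes were called. The median member difference, iKO minus flox, was 0.29 against 0.00 over all genes tested, with 36 members positive and 3 negative. It was 0.08 without young flox array 3, 0.11 without young iKO array 1 and 0.48 without young flox array 1. No member had its 2 groups apart, where 2.19% of all genes did.

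Ifit3, an antiviral adaptor, read 1.34, 0.45, 0.56 and 0.91 in young flox and 1.76, 1.17, 1.35 and 1.11 in young iKO. Only flox array 1 reached into the iKO range, and the difference was 0.53 ± 0.24 (adjusted p = 1). Cxcl11 was on the opposite side, at -3.30, -2.93, -2.49 and -3.79 in flox and -3.61, -3.68, -4.13 and -3.78 in iKO (-0.67 ± 0.35, adjusted p = 1). Igtp had the largest positive value, 0.77 ± 0.55, with flox array 3 at 1.77 and the other flox arrays at 3.44 to 4.72, against 3.16 to 5.03 in iKO. Parp9 gave 0.31 ± 0.15, Irf8 0.34 ± 0.20 and Ifit1 0.49 ± 0.32, none of which passed.

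Each young slide held 1 array of each genotype. The score difference within slides 1 to 4, iKO minus flox, was -0.46, 0.59, 0.48 and 0.50, with 5, 35, 33 and 35 of 38 members positive. The genotypes thus stood in opposite order on slide 1 and on the other 3 slides.

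In the aged ileum again no member passed, 0 of 39 with limma, where 0.167% of all genes were called. The median difference, iKO minus flox, was 0.41 against 0.02 over all genes tested, with 37 members positive and 2 negative. It was 0.31 without aged iKO array 3 and 0.09 with slide as a fixed factor. For 7 members all iKO arrays lay above all flox arrays, where 8.22% of all genes did, and these were Parp9, Mx2, Usp18, Stat2, Irf1, Zbp1 and Oasl1.

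Parp9 read 1.84, 1.75 and 1.80 in aged flox and 2.31, 2.13, 2.41 and 2.11 in aged iKO, apart by 0.44 ± 0.16 (adjusted p = 0.308). Mx2, an interferon-induced dynamin-like GTPase, read -1.61, -1.86 and -1.60 in flox and -0.85, -1.27, -0.18 and -0.85 in iKO (0.90 ± 0.38, adjusted p = 0.367). Usp18 read -0.61, -1.31 and -0.59 in flox and 0.51, -0.38, 1.10 and 0.22 in iKO (1.20 ± 0.57, adjusted p = 0.427). All iKO arrays of these 3 genes lay above the flox arrays, with iKO array 3 the highest of its group in each.

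Isg15, the ubiquitin-like modifier, read -0.17, -0.19 and 0.11 in aged flox and 1.09, 0.11, 1.90 and 1.11 in aged iKO. The groups met at 0.11, and the difference was 1.14 ± 0.48 (adjusted p = 0.371). Irf8 gave 0.56 ± 0.21 (adjusted p = 0.335) and Stat2 0.53 ± 0.27 (adjusted p = 0.459). Cxcl11 was again on the opposite side, -3.63, -2.55 and -2.76 in flox and -2.75, -4.13, -3.26 and -4.20 in iKO, with overlap and 1 of 4 iKO arrays well above background. Slide 2 alone held both aged genotypes, with a score difference of 0.20 and 26 of 38 members positive.

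In the aged colon 1 of 40 members was called, Cxcl11, which was lower in iKO. Cxcl11 entered this test only through the flox group, where it is above background. Over 19753 genes 0.111% were called and 0.0203% called lower. The median difference, iKO minus flox, was 0.14 against -0.01 over all genes tested, with 27 positive and 13 negative, and it was -0.02 without colon iKO array 2. Members with groups apart were Mx1, Zbp1 and Stat2 above, where 4.6% of all genes lay above, and Cxcl11 below, where 3.59% lay below.

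Cxcl11 read -4.15, -4.31 and -4.29 on the flox colon arrays and -6.84, -6.80, -7.64 and -6.32 on the iKO colon arrays. The 3 flox arrays lay close together, and all were well above background, while none of the 4 iKO arrays was. The difference passed (adjusted p = 0.0306), and it is given as at least 3.89-fold lower because the iKO side is a bound. Of the tests that left out 1 array, those without any of the flox arrays (adjusted p = 0.101 to 0.167), without iKO array 1 (0.119) or without iKO array 2 (0.143) did not pass. It also did not pass without the filter on dim probes (0.0654), with the replicate block (0.316) or with slide as a fixed factor (0.439).

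On the colon slides the Cxcl11 signal was lower in iKO, which follows from the groups being apart and adds nothing to the call. It was also lower on the ileum slides that held both genotypes of an age. The share of all genes lower on each of those was not taken. Genotype coincides with position in the young ileum and the colon. In the young ileum, where 3 of 4 iKO arrays were well above background, the differences were -0.39, -0.68, -1.28 and -0.34. No size is given for the colon and aged ileum slides, where 0 of 4 and 1 of 4 iKO arrays were above background. The ileum differences did not pass in either age, and the test of genotype by tissue did not pass (adjusted p = 0.564).

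Mx1 read -3.91, -3.73 and -3.48 in the flox colon and -2.35, -3.28, -2.55 and -2.94 in the iKO colon, apart by 0.93 ± 0.24 (adjusted p = 0.357). Zbp1 read -0.14, 0.85 and 0.64 in flox and 1.56, 2.54, 1.07 and 1.07 in iKO, apart by 1.11 ± 0.41 (adjusted p = 0.594). Neither passed, although every iKO array lay above every flox array. Stat2 gave 0.56 ± 0.26 (adjusted p = 0.739), Ifi47 -0.71 ± 0.38 (adjusted p = 0.807) and Cxcl10 -0.29 ± 0.16 (adjusted p = 0.827).

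Several antiviral genes were high on colon iKO array 2 alone. Oas2 read -0.05 there, against -2.995 to -2.468 on the other iKO arrays and -3.35 to -2.53 on the flox arrays. Isg15 read 1.36 there, against -1.42 to -0.92 and -1.72 to -1.03, and Usp18 0.24, against -2.18 to -1.65 and -2.19 to -1.72. Rtp4, a chaperone of receptors and an interferon target, read 4.20 there, against 1.34 to 1.69 and 1.72 to 1.98. In each of these genes the other 3 iKO arrays lay near the flox arrays. The score differences within slides 8, 7 and 6 were 0.17, 0.48 and -0.21, with 28, 27 and 8 of 38 members positive, and iKO array 2 lay on slide 7.

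Natural killer and cytotoxic markers had 0 genes called by limma between genotypes. Their median differences were 0.46 in the young ileum, 0.55 in the aged ileum and -0.61 in the colon. In the colon 0 of 5 tested markers were positive. Ncr1 and Prf1 were not tested there, as some arrays of each group had them at background. Their colon means went the other way, at -5.772 in iKO against -6.271 in flox for Ncr1 and -6.415 against -6.626 for Prf1. Of the other cell type scores, 3 had the genotypes apart in 1 comparison each and are given for that reason. The rest overlapped between genotypes in every comparison, so some separation among so many scores is not unusual with few arrays. In the aged ileum fibroblast markers ran from -0.119 to 0.378 in flox and -0.612 to -0.145 in iKO, and endothelial markers from 0.205 to 0.691 and 0.029 to 0.117. In the colon B and plasma cell markers ran from -0.843 to -0.153 in flox and 0.053 to 0.825 in iKO. No gene of these 3 lists was called by limma in those comparisons, and their part in the member differences was not tested. No interferon ligand was called between genotypes.

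**Figure D5:**
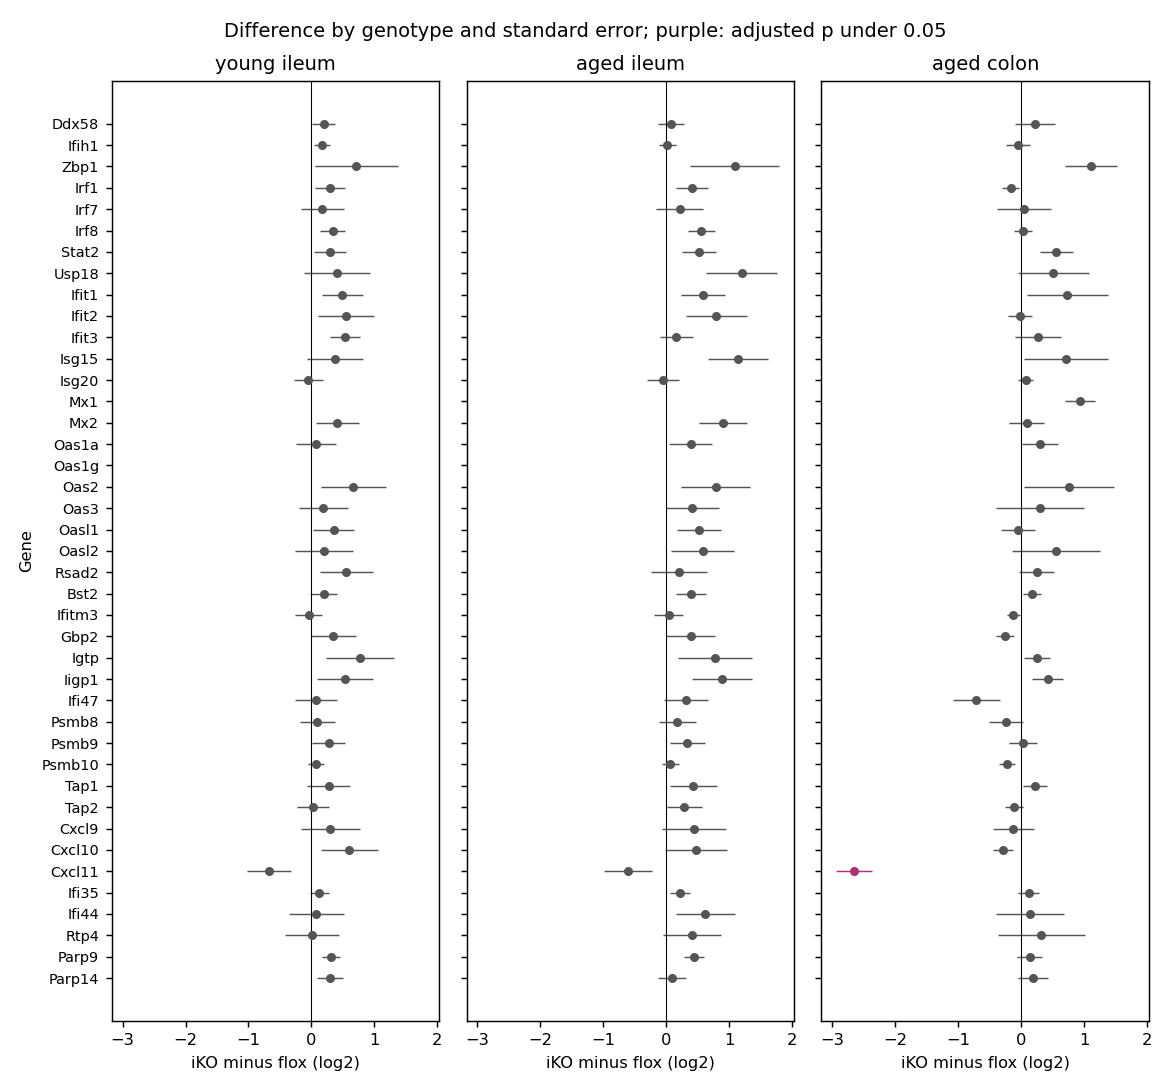
Differences between iKO and flox for each tested member in the young ileum, aged ileum and aged colon, with standard errors in log2 units. Most points lie to the right of 0 in the ileum, and Cxcl11 in the colon, at a measured -2.65 with the iKO side a bound, is the only member of the 3 panels whose difference passed.

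Whether the genotype difference changed with tissue was tested in the aged mice. No member of 40 passed in limma, where 0.0353% of all genes passed. The median was -0.25, with 31 negative and 9 positive. Irf1 gave -0.58 ± 0.20 (adjusted p = 0.706), Ifi47 -1.03 ± 0.47, Mx2 -0.82 ± 0.40, Cxcl10 -0.77 ± 0.39 and Irf8 -0.52 ± 0.26 (adjusted p = 0.832 for the last 4). Each compares 4 groups and has a wide error.

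With age in the flox ileum 1 of 39 members was called, Isg15, which was lower in aged mice. Over all genes 8.66% were called and 5.29% called lower. Isg15 read 2.84, 2.14, 1.28 and 1.24 in young flox and -0.17, -0.19 and 0.11 in aged flox. The groups were apart, by -1.96 ± 0.48 (adjusted p = 0.0269), a 3.89-fold difference, on the probe whose identity is uncertain. The call was lost without young flox array 1 (-1.64, adjusted p = 0.0665) and without any of the aged flox arrays (0.0666 to 0.0798). It was also lost without the filter on dim probes (0.0703) and with slide as a fixed factor (0.11).

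The other flox members did not pass with age. Ifitm3 gave 0.59 ± 0.23 (adjusted p = 0.127), Ddx58 -0.41 (adjusted p = 0.222), Ifi35 -0.27 (adjusted p = 0.307), Ifit3 -0.40 (adjusted p = 0.353) and Bst2 -0.35 (adjusted p = 0.371). The median was -0.03 against -0.02 over all genes tested, with 18 positive and 21 negative. It was -0.28 without young flox array 3 and 0.14 without young flox array 1. All aged arrays lay below all young arrays for Isg15 and Ifi35, where 15% of all genes did.

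With age in the iKO ileum no member of 39 passed in limma, where 10.9% of all genes were called. Ifit3 read 1.76, 1.17, 1.35 and 1.11 in young iKO and 0.65, 0.01, 1.21 and 0.41 in aged iKO, with aged array 3 inside the young range (-0.78 ± 0.24, adjusted p = 0.0563). Ifitm3 gave 0.66 ± 0.21 (adjusted p = 0.0621) with all aged arrays above all young ones, Ddx58 -0.53 ± 0.19 (adjusted p = 0.088) with all below (10.8% of all genes), and Isg15 -1.20 ± 0.45 (adjusted p = 0.0985). Ifi47 and Tap1 each gave 0.68 (adjusted p = 0.198 and 0.217). Probes of Ddx58 disagreed with age, a further probe well above background on all arrays giving 0.03 in iKO and 0.08 in flox. The median was 0.13 against -0.02 over all genes tested, with 26 positive and 13 negative, and it was -0.03 without aged iKO array 3. Psmb8 also had all aged arrays above, where 8.01% of all genes did.

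The comparisons with age share their groups with those between genotypes. Whether the genotype difference changed with age was tested directly, and 0 of 39 members passed in limma, where 0% of all genes passed. The median was 0.13, with 31 positive and 8 negative, at 0.38 without young flox array 3 and -0.07 without young flox array 1. Usp18 gave 0.80 ± 0.78, Isg15 0.76 ± 0.65, Ifi44 0.55, Mx2 0.49, Ifit3 -0.37 and Ifih1 -0.15, each with an adjusted p of 0.999.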

How the data were processed

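Total RNA was read on 22 Agilent one-colour arrays (41174 probes). The authors deposited spot intensities made with Agilent Feature Extraction 9.5, per the submitters' processing notes, background-subtracted within each array and not scaled between arrays, per the file headers. Outlier-flagged spots were removed, spots of a probe averaged, log2 taken and the 75th percentile of the array subtracted. Genes whose probe stood well above background throughout at least 1 group entered limma (version 3.58.1, under R 4.3.3) in fits of the 15 ileum, 7 colon and 14 aged arrays, at a Benjamini-Hochberg adjusted p under 0.05 over all genes. A bound sets the bright mean against the higher of the dim signal and the lowest signal well above background. Members, lists and tests were chosen with earlier results of these data known. Up to 12 passing members each way were named by p. Where fewer than 5 passed, the 6 with the smallest p were named. Antiviral members described for colon iKO array 2 were picked after their values were seen. Alternatives covered scaling, normexp, filters, probes, variance, array weights, slide, position, replicate block and each array left out. The number of arrays limits precision. Python 3.11.15, pandas 2.3.3, matplotlib 3.10.9 and version 1.17.8 of data.table were also used.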

Additional observations from a re-analysis of the deposited data

Results flagged for a closer look

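In groups of 4 arrays, 164 sets of values (the score and each of the 40 tested members) were examined for 1 array whose gap to its nearest neighbour took up most of the range of the group, which chance gives in about 1 in 20 groups. It occurred 6 times in the 164 sets, less often than that rate, and the sets share arrays and so are not independent. On colon iKO array 2, Ifi44, an interferon-induced gene, read -1.796, against -4.067 to -3.726 on the other 3 arrays. On the same array Oasl2, of the oligoadenylate synthetase family, read 3.305, against 0.402 to 0.687, and Rtp4 read 4.205, against 1.345 to 1.694. On young iKO array 1, Tap1 read 2.013, against 0.953 to 1.112 on the others, and Ifit2 read -0.723, against -2.017 to -1.821. On young flox array 3, Iigp1, a GTPase, read 0.642, against 2.275 to 2.389 on the others. These are the arrays with the highest colon score and the highest and lowest young ileum scores.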

How the results depend on the processing

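No called difference changed direction under any alternative run. Between genotypes in the young or aged ileum and in both tests of interaction, no member was called under any setting or with any array left out. The aged ileum genotype median was 0.088 with slide as a fixed factor. With age in flox, 0 members were lower without the filter or with slide fixed, and 1 was higher (Ifitm3) with array weights. With age in iKO, 1 was lower (Ifit3) under the strict filter, with trend and robust moderation or with slide fixed, and 1 higher (Ifitm3) with only the groups in the contrast or array weights. In the colon, 0 were lower without the filter or with slide fixed. The strict filter took Cxcl11 out of the colon test, so its call could not be tried there. Between tissues in iKO, 2 were higher with the mean over probes. Young flox array 3 had the lowest ileum score and colon iKO array 2 the highest colon score under all 4 other ways of making the score, and with normexp aged iKO array 3 (0.564) took the highest place in the ileum.

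Residuals of arrays with equal replicate numbers correlated at -0.345 to 0.298 between genotypes and -0.073 to 0.14 between tissues. Between genotypes no values for unequal numbers stand beside them. Between tissues, each aged ileum array was also set against every colon array of its genotype. The closest colon array had the same number for flox array 4 alone. Whether the numbers pair arrays was not tested further. With the replicate block, 1 member was lower with age in iKO (Ifit3, adjusted p = 0.034) and 0 were lower in the colon.

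With 1 array left out, the median member difference ranged from 0.080 to 0.483 in the young ileum, in the aged ileum from 0.308 to 0.495, and in the colon from -0.024 to 0.244. It ranged from -0.276 to 0.136 with age in flox, -0.067 to 0.254 with age in iKO, -0.072 to 0.384 for genotype by age and -0.436 to -0.142 for genotype by tissue. Between tissues it was -1.235 to -0.911 in flox and -1.658 to -1.361 in iKO, with 19 to 29 and 26 to 34 members lower and 1 to 2 higher in iKO. Called members ranged from 0 to 1 in the colon and with age. The causes were not tested. Tissue could not be fitted with slide, since slides lie within tissues, and position was fitted in the aged ileum only.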
